A study of Homo sapiens with 12 samples.

Results

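The network described here is MYC and the small proteins that pair with it or compete with it for MAX. Its 10 members were named by symbol and each was found once, as MYC, MYCN, MYCL, MAX, MXD1, MXD3, MXD4, MXI1, MNT and MLX, among the 36486 genes left after the 40295 gene identifiers of the count table were summed by symbol. MYC, MYCN and MYCL are transcription factors that bind E-box DNA only as dimers with MAX, and they activate genes of ribosome assembly, nucleotide and polyamine synthesis and the cell cycle. MXD1, MXD3, MXD4, MXI1 and MNT, called antagonists below, bind the same partner and the same sites but recruit the SIN3 and histone deacetylase corepressor. MLX is a MAX-like protein that pairs with MondoA and ChREBP, which sense glucose metabolites, and also with some MXD proteins and MNT. Both the mRNA and the protein of MYC are short lived.

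The libraries were RNA sequencing libraries of human cancer cell lines, made to ask which genes respond to compounds intended to restore function to mutant p53. TOV-112D cells, an ovarian carcinoma line with mutant p53, were labelled as 3 h of DMSO, UCI-1001 or UCI-1014, with 2 libraries each. Saos-2 cells, an osteosarcoma line without functional p53, gave 3 libraries labelled p53-null, from the parental cells, and 3 labelled p53-WT, from a derivative that expresses wild-type p53 when doxycycline is added. Both Saos-2 groups carry the label of a 16 h induction, the labels give no dose for either compound, and no source used here gives the dose of UCI-1014 for these libraries. UCI-1014 is an analogue of UCI-1001 with a methoxy in place of the nitro substituent. All 5 groups are cultured cell lines, nothing says that replicates came from separate cultures, and p-values therefore measure the spread between these libraries only. In such bulk samples fewer expressing cells and less RNA per cell cannot be told apart.

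Total counts were 17762027 to 20717898 per TOV-112D library and 19593655 to 24629558 per Saos-2 library. Levels are given as CPM, the count scaled to a common library size with TMM factors, for comparisons of a gene between libraries, and as TPM, which corrects for transcript length, where different genes are compared. A gene was called at an adjusted p under 0.05 in edgeR's quasi-likelihood test, fitted per cell line over 14177 (TOV-112D) and 14275 (Saos-2) genes. MDM2, a direct p53 target, averaged 134 CPM in p53-null and 2921 CPM in p53-WT, and 130.1 CPM with UCI-1001 and 135 CPM with UCI-1014 against 129.8 CPM in DMSO, where it was not called (edgeR adjusted p = 0.968 and 0.350). Of 8 osteoblast markers 3 reached 1 CPM in Saos-2, with SP7 at 0 and a summed level of 26.2 to 50.5 CPM led by SPP1, and of 8 epithelial and ovarian carcinoma markers 3 reached 1 CPM in TOV-112D, with KRT18 at 0 and a sum of 4.12 to 6.45 CPM. The reverse pairing gave higher sums. The osteoblast list summed to 58.2 to 63.5 CPM in TOV-112D, led by COL1A1 with IBSP at 0. The epithelial list summed to 722 to 1090 CPM in Saos-2, led by KRT18 with MUC16 at 0. By these sums, each led by 1 gene, both lists ran against the labelled tissue of origin. Of 5 leukocyte markers 2 reached 1 CPM in TOV-112D (sum 37.5 to 64.5 CPM) and 1 in Saos-2 (90.0 to 111 CPM), led by CD68 with CD3E at 0, and the summed endothelial markers reached at most 2.88 CPM.

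Among the members, MXD1 changed most with the compounds and MYC, MXD3, MXD4 and MXI1 with p53-WT. MXD1 rose 6.11-fold with UCI-1001 and 19.8-fold with UCI-1014, while MYC fell by 0.36 on the log2 scale with UCI-1014. With p53-WT, MYC was 2.93-fold and MXD3 6.81-fold lower, whereas MXD4 was 3.81-fold and MXI1 3.19-fold higher. UCI-1001 changed 2 of the 9 members that passed the filter on low counts, both upwards (1 to 4 on leaving out each library in turn), where 15.7% of all genes tested were called (9.39% up and 6.36% down). These 2232 genes became 952 without DMSO replicate 1, 1020 without DMSO replicate 2 and 1188 without UCI-1001 replicate 2. UCI-1014 changed 8 of 9, 5 up and 3 down (5 called without DMSO replicate 2 or UCI-1014 replicate 1), against 47.1% of all genes (23.7% up, 23.4% down), and differed from UCI-1001 in 5 of 9, 4 up and 1 down, against 31.1% (17.1% up, 13.9% down). With p53-WT 7 of 9 changed, 4 up and 3 down, against 66.5% of all genes (33.5% up, 33% down), so that the Saos-2 share of members lies close to that of all genes. The same DMSO libraries serve as controls for both compounds, so the differences from DMSO are only set side by side. UCI-1014 was tested against UCI-1001 directly. The member that failed the filter was MYCN.

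**Figure D1:**
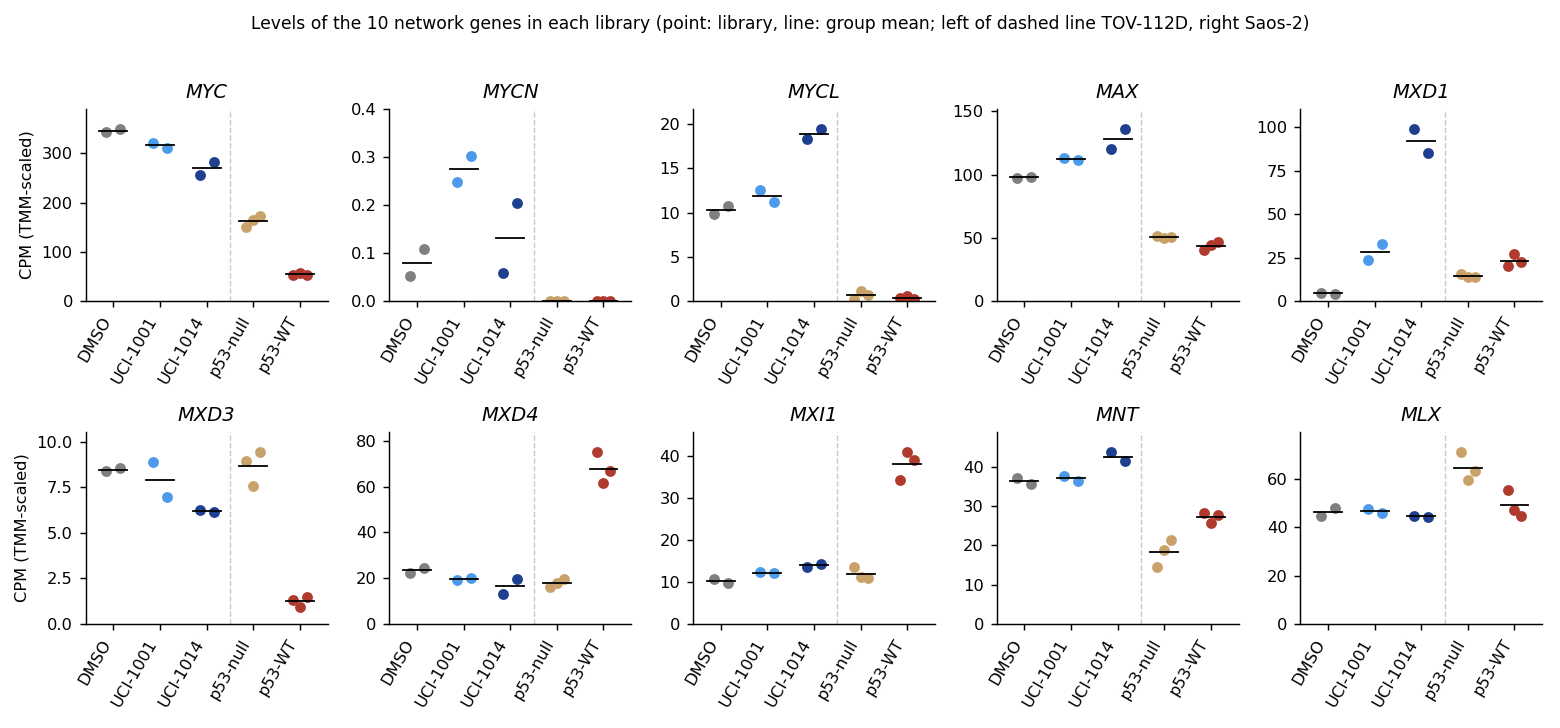
CPM of each of the 10 members (1 panel a gene, each with its own linear axis from 0) in the 12 libraries, with points for libraries and lines for group means. MXD1 climbs from 4.28 to 4.95 CPM in DMSO to 85.1 to 98.6 CPM with UCI-1014, MYC drops from 150.0 to 172 CPM in p53-null to 53.6 to 57.9 CPM in p53-WT, and MYCN has at most 6 counts in any library.

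Within the MYC family, MYC was by far the most abundant. Its level was 344 and 348 CPM in DMSO, 321 and 310 CPM with UCI-1001, and 256 and 282 CPM with UCI-1014. The 3 groups did not overlap, and both UCI-1014 libraries were the lowest. With UCI-1001 the log2 difference was -0.13 (SE 0.04, 95% interval -0.22 to -0.04), which was not called by edgeR after adjustment (adjusted p = 0.0587). With UCI-1014 MYC fell by 0.36 (SE 0.04, adjusted p = 1.09e-05), and it was also lower with UCI-1014 than with UCI-1001 (log2 difference -0.23, SE 0.04, adjusted p = 0.00128). That last difference was not called in limma on TPM (adjusted p = 0.0928) or in a fit of all 12 libraries (adjusted p = 0.131). The UCI-1001 difference was called in 5 of 15 alternatives at nearly the same size, which were those without UCI-1014 replicate 1 or 2 (adjusted p = 0.014 and 0.0142), without the filter (0.018), with library size alone (0.0317) and with only the 4 libraries compared (0.0127).

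In Saos-2 MYC was at 150.0, 164 and 172 CPM in the p53-null libraries and at 54.1, 57.9 and 53.6 CPM in p53-WT. Every p53-WT library lay below every p53-null library. The log2 difference was -1.55 (SE 0.10, adjusted p = 2.09e-07), which ranked 731 from the lowest among the 14275 genes tested. In that comparison 9489 genes were called.

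MYCL, a MYC relative first found amplified in small cell lung cancer, was a minor transcript. It stood at 9.84 and 10.7 CPM in DMSO, 12.6 and 11.2 CPM with UCI-1001, and 18.3 and 19.4 CPM with UCI-1014. MYCL rose 1.84-fold with UCI-1014 against DMSO (log2 difference 0.88, SE 0.10, edgeR adjusted p = 6.37e-06) and 1.59-fold against UCI-1001 (adjusted p = 0.000143), in the opposite direction to MYC, though the latter was not called in limma on TPM (adjusted p = 0.051) or in the fit of 12 libraries (adjusted p = 0.114). With UCI-1001 its log2 difference of 0.21 was not called (95% interval -0.02 to 0.44). In Saos-2 MYCL gave 6 to 24 counts per library and the groups overlapped, with a log2 difference of -0.84 (95% interval -1.96 to 0.29, adjusted p = 0.172). Without p53-null replicate 1, which had 6 counts, that difference was -1.22 and was called (adjusted p = 0.0413).

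MYCN, the neuronal member of the family, had 1 and 2 counts in DMSO, 5 and 6 with UCI-1001, and 1 and 4 with UCI-1014. These counts are too few for a test. None of the 6 Saos-2 libraries had a MYCN count, and 3 counts there correspond to 0.132 to 0.149 CPM, so a level below that was not detectable at this depth. MYCN was thus near or below the limit of these libraries in every group.

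MAX, the obligate partner of both sides of the network, was the second most abundant member in TPM in 4 groups and the first in p53-WT. That first place rests on its retained-intron transcript MAX-209. The level of MAX was 97.4 and 98.5 CPM in DMSO, 113 and 111 CPM with UCI-1001, and 120 and 136 CPM with UCI-1014. No library of one treatment overlapped another treatment. MAX rose 1.15-fold with UCI-1001 (log2 difference 0.20, SE 0.05, edgeR adjusted p = 0.0251) and 1.31-fold with UCI-1014 (0.39, SE 0.05, adjusted p = 3.59e-05), and it was 1.14-fold higher with UCI-1014 than with UCI-1001 (adjusted p = 0.0133), a difference not called with library size alone (adjusted p = 0.271), without UCI-1014 replicate 2 (adjusted p = 0.128), in limma on TPM (0.03, adjusted p = 0.914) or in the fit of 12 libraries (adjusted p = 0.407). The UCI-1001 call was lost on leaving out any of the 4 libraries of that comparison (adjusted p = 0.0820 to 0.190), under DESeq2 (adjusted p = 0.0740), with unsummed identifiers (adjusted p = 0.051), in limma on TPM (0.11, adjusted p = 0.733) and in the fit of 12 libraries (adjusted p = 0.585). In Saos-2 MAX was at 49.99 to 51.4 CPM in p53-null and 40.2 to 46.7 CPM in p53-WT, a log2 difference of -0.21 that was not called (95% interval -0.43 to 0.02, adjusted p = 0.0983) but was called with library size alone (-0.36, adjusted p = 0.0145), in limma on TPM (-0.32, adjusted p = 0.0233) and in the fit of 12 libraries (-0.20, adjusted p = 0.0447).

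On the TPM scale MAX differed less between UCI-1014 and DMSO, and the shares of its transcripts differed. The deposited TPM of MAX was 147 and 135 in DMSO and 139 and 173 with UCI-1014, which overlap, and in limma on log2(TPM + 0.1) the difference was 0.14 (adjusted p = 0.512). MAX-209, a retained-intron transcript of 327 bases, made up 23.5 to 31.7% of MAX TPM in DMSO, 15.2 to 22.7% with UCI-1001 and 1.29 to 13.5% with UCI-1014. MAX-205 and MAX-216, both annotated as protein coding, went from 8.09 to 13.2% and 8.07 to 9.56% of MAX TPM in DMSO to 18.0 to 18.5% and 17.5 to 20.7% with UCI-1014. With UCI-1001 MAX-205 was at 15.8 to 20.7%, above DMSO, while MAX-216 was at 8.34 to 13.1% and overlapped DMSO. MAX-204 remained the main transcript at 42.2 to 50.6% with UCI-1014 and 44.9 to 45.2% in DMSO. These shares are kallisto estimates for transcripts that overlap each other, and they were not tested.

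MXD1, which represses MYC targets as cells leave the cycle or differentiate, was the most responsive member in TOV-112D. It had 96 and 79 counts in DMSO, 480 and 651 with UCI-1001, and 1651 and 1664 with UCI-1014, or 4.95 and 4.28, 23.8 and 32.7, and 98.6 and 85.1 CPM. The 3 groups were far apart, with the lowest UCI-1001 library above both DMSO libraries and the lowest UCI-1014 library above both UCI-1001 libraries. The rise was 6.11-fold with UCI-1001 (95% interval 4.75 to 7.85, edgeR adjusted p = 1.05e-07) and 19.8-fold with UCI-1014 (15.9 to 24.7, adjusted p = 1.25e-11), and MXD1 was 3.25-fold higher with UCI-1014 than with UCI-1001 (2.76 to 3.82, adjusted p = 4.36e-08). Ranked by log2 fold change over 14177 genes, MXD1 stood at place 40, 36 and 62 in these comparisons. It was the only member with a log2 difference above 1 with either compound.

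In Saos-2 MXD1 was at 15.5, 14.1 and 14.1 CPM in p53-null and at 20.0, 27.2 and 22.5 CPM in p53-WT. The groups did not overlap, and MXD1 rose 1.59-fold (log2 difference 0.67, SE 0.13, adjusted p = 0.000998 by edgeR). On the TPM scale the groups overlapped, at 3.68 to 4.601 TPM in p53-null and 4.34 to 6.42 TPM in p53-WT. In limma on log2(TPM + 0.1) the difference was 0.37 and not called (adjusted p = 0.163).

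The stretch from 250 bases before to 50 after the RefSeq start site is printed for MXD1, the member with the largest compound response, and for MXD4, MNT and MLX, the members with an E-box in that stretch among the 9 searched. The MYC promoter was not analysed here. Sequences are those of RefSeq on GRCh38.p14, on the strand of the gene, and capitals mark the E-box.
MXD1, chr2:69914859-69915158, plus strand: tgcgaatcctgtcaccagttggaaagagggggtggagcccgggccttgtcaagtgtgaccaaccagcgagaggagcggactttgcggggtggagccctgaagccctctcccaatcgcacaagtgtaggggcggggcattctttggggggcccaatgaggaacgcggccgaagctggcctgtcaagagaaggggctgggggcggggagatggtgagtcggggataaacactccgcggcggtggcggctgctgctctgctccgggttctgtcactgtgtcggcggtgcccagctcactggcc
MXD4, chr4:2262060-2262359, minus strand: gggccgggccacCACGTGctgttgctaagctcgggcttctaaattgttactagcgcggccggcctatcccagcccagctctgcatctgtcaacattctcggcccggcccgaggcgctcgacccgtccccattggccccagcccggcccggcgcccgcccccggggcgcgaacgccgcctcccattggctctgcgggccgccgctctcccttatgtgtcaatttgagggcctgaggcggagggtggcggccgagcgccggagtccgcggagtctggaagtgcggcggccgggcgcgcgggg
MNT, chr17:2401011-2401310, minus strand: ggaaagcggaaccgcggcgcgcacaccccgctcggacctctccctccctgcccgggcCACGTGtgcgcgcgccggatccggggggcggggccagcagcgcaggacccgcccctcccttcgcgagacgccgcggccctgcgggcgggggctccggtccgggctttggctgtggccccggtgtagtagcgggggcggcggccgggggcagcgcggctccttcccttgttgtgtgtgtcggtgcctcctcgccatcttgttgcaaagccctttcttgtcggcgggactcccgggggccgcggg
MLX, chr17:42566850-42567149, plus strand: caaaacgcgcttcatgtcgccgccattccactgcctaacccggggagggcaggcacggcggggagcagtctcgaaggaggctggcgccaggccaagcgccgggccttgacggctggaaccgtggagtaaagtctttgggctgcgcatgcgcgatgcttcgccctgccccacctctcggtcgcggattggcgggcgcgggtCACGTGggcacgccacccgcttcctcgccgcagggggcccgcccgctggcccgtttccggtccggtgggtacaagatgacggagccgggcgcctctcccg
The E-box CACGTG, the core site of MYC-MAX and MXD-MAX dimers, begins at position -238 relative to the start site in MXD4, -193 in MNT and -50 in MLX. It was searched on both strands and lies in 7.26% of the 35116 RefSeq promoters of this length. The stretches of MXD1, MXI1, MAX, MYCL and MYCN held neither that E-box nor the heat shock pair GAANNTTC (6.77% of all promoters), the p53 decamer motif (6.63%) or the AP-1 site TGACTCA (4.95%). For MAX this concerns 2 RefSeq starts, at 65101684 and 65102283 of chromosome 14, whose transcripts were at 0 TPM in every library but 1 (0.379 TPM), while the main MAX transcripts start at 65102504 or 65102517. An AP-1 site was found in the MXD3 stretch and the E-box variant CACGCG (11.4% of all promoters) in the MXD3 stretch and 1 of the 3 MXI1 stretches. The MXD3 start searched was 177312752 of chromosome 5. The only transcript starting within 100 bases of it held 6.27 to 28.1% of MXD3 TPM in p53-null and 36.7 to 53.8% in DMSO. The main MXD3 transcript in p53-null, with 47.6 to 65.6%, starts at 177311898, which was not searched. These shares were not tested. A match is a run of letters and no site of binding was measured, and absence says only that these letters are not in this window.

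MXD4, an antagonist that is more typical of resting cells, moved in opposite directions in the cell lines. In Saos-2 it stood at 16.0, 17.7 and 19.6 CPM in p53-null and at 75.04, 61.6 and 67.0 CPM in p53-WT. The groups were clearly separate, and MXD4 rose 3.81-fold (95% interval 3.16 to 4.61, edgeR adjusted p = 1.47e-07), the largest rise among the members in that comparison. In TOV-112D it was at 22.3 and 24.5 CPM in DMSO, 19.2 and 20.0 CPM with UCI-1001, and 13.3 and 19.9 CPM with UCI-1014. MXD4 fell with UCI-1014 by 0.49 on the log2 scale (SE 0.13, adjusted p = 0.00761), and its UCI-1001 difference of -0.26 was not called (95% interval -0.53 to 0.02, adjusted p = 0.208). The UCI-1014 libraries stood apart from each other, and without replicate 1 the difference was -0.23 and not called (adjusted p = 0.0999), nor was the difference of -0.42 without DMSO replicate 2 (adjusted p = 0.0748). On the TPM scale the groups overlapped, at 10.8 and 10.04 TPM in DMSO and 6.60 and 10.05 TPM with UCI-1014, and limma did not call the difference (adjusted p = 0.302). Against UCI-1001 the difference of -0.23 was not called (adjusted p = 0.224), and it was 0.03 without UCI-1014 replicate 1 and -0.55 without replicate 2 (adjusted p = 0.871 and 0.00297). The UCI-1001 difference from DMSO was called without UCI-1014 replicate 1 or 2 (adjusted p = 0.0456 and 0.0451), and without the filter or with only the 4 libraries compared (both adjusted p = 0.0475).

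MXI1, a further MXD family antagonist, was also higher with p53-WT in Saos-2. It was at 13.5, 11.2 and 10.96 CPM in p53-null and 34.2, 40.9 and 38.9 CPM in p53-WT, with no overlap. The rise was 3.19-fold (95% interval 2.63 to 3.89, adjusted p = 6.15e-07 by edgeR). In TOV-112D MXI1 was at 10.7 and 9.85 CPM in DMSO, 12.4 and 12.1 CPM with UCI-1001, and 13.7 and 14.2 CPM with UCI-1014. All treated libraries lay above both DMSO libraries. It rose 1.36-fold with UCI-1014 (log2 difference 0.44, SE 0.10, adjusted p = 0.00262, or 0.0629 in the fit of 12 libraries), and the UCI-1001 difference of 0.25 was not called (95% interval 0.03 to 0.48, adjusted p = 0.118).

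MXI1 is transcribed from 3 start sites in the RefSeq table, at positions 110207605, 110210231 and 110225996 of chromosome 10 (GRCh38). Transcripts that begin at the last of these gave most MXI1 TPM in p53-null, 5.03, 4.93 and 5.29 TPM, and 9.57, 6.41 and 9.27 TPM in p53-WT. The first start gave 0.556, 1.31 and 1.03 TPM in p53-null and 5.03, 6.16 and 5.96 TPM in p53-WT, so both starts were higher in every p53-WT library. The middle start was uneven, at 1.60, 0.871 and 0.0192 TPM in p53-null and 0, 8.34 and 5.51 TPM in p53-WT. These estimates split reads among transcripts that share most of their exons and were not tested.

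MXD3, unlike the other MXD genes, is known to be expressed in proliferating cells. In Saos-2 it stood at 8.94, 7.58 and 9.43 CPM in p53-null and at 1.33, 0.946 and 1.498 CPM in p53-WT, 19 to 34 counts per library. It was 6.81-fold lower (log2 difference -2.77, SE 0.20, edgeR adjusted p = 3.61e-07), which ranked 177 from the lowest among 14275 genes and was the largest difference of any member there. In TOV-112D MXD3 was at 8.40 and 8.55 CPM in DMSO, 8.87 and 6.99 CPM with UCI-1001, and 6.27 and 6.14 CPM with UCI-1014. It fell by 0.45 with UCI-1014 (SE 0.15, adjusted p = 0.0212), a call that was lost on leaving out any of the 4 libraries compared (adjusted p = 0.0625 to 0.0894), under DESeq2 (adjusted p = 0.162), in limma on TPM (adjusted p = 0.0658) and in the fit of 12 libraries (adjusted p = 0.0562). Against UCI-1001 the difference was -0.35 and not called (95% interval -0.67 to -0.04, adjusted p = 0.0848), but was called without UCI-1001 replicate 2 (-0.50, adjusted p = 0.0306) and with library size alone (-0.47, adjusted p = 0.0193).

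MNT, the broadly expressed antagonist, was the most abundant of the 5 in DMSO by TPM summed over all transcripts. Its coding transcript MNT-201 held 51.0 to 52.8% of that TPM. MNT-204, without a defined coding sequence, held 24.3 to 24.8% from 18.8 to 20.8 estimated counts. The level of MNT was 14.5, 18.8 and 21.3 CPM in p53-null and 28.2, 25.8 and 27.7 CPM in p53-WT, and it rose 1.496-fold (log2 difference 0.58, SE 0.14, edgeR adjusted p = 0.00394). In TOV-112D it was at 37.2 and 35.7 CPM in DMSO, 37.7 and 36.4 CPM with UCI-1001, and 43.7 and 41.4 CPM with UCI-1014. The called rise with UCI-1014 was small (0.22, SE 0.07, adjusted p = 0.0128) and depended on the scaling, since the difference was 0.09 with library size alone (adjusted p = 0.291) and -0.02 in limma on TPM (adjusted p = 0.892). It was also lost without DMSO replicate 2 (adjusted p = 0.105), without UCI-1014 replicate 1 (adjusted p = 0.0591), under DESeq2 (adjusted p = 0.0904) and in the fit of 12 libraries (adjusted p = 0.450). The rise over UCI-1001 (0.20, adjusted p = 0.0335) lost its call in 9 of 15 alternatives, since it was not called with library size alone (adjusted p = 0.343) or on leaving out DMSO replicate 2, UCI-1001 replicate 1 or 2, or UCI-1014 replicate 1 (adjusted p = 0.0557 to 0.126), nor without the filter, under DESeq2, in limma on TPM or in the fit of 12 libraries (adjusted p = 0.0613 to 0.559).

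MLX changed least in TOV-112D, where its 6 libraries lay between 44.3 and 47.9 CPM. The log2 differences were 0.01 with UCI-1001 (95% interval -0.12 to 0.14) and -0.06 with UCI-1014 (-0.19 to 0.08), and neither was called by edgeR, although the latter was -0.19 and called with library size alone (adjusted p = 0.0168), as was UCI-1014 against UCI-1001 (-0.18, adjusted p = 0.0277, or -0.07 and adjusted p = 0.450 with TMM). In Saos-2 MLX was at 70.9, 59.6 and 63.1 CPM in p53-null and 55.4, 47.1 and 44.5 CPM in p53-WT. It fell by 0.40 (SE 0.12, adjusted p = 0.0127), with no overlap between the groups. The call was lost without p53-WT replicate 2 (adjusted p = 0.0503) or replicate 3 (adjusted p = 0.0698).

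**Figure D2:**
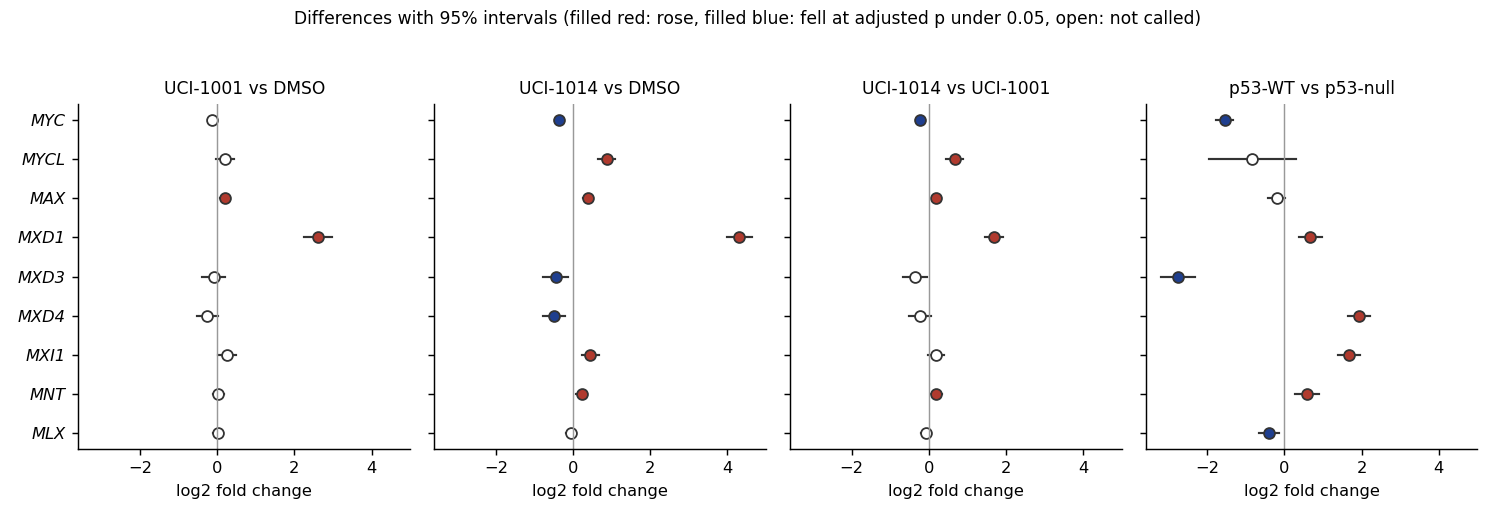
Log2 fold change (x axis) of the 9 members that passed the filter, with 95% intervals, in 4 panels for the 4 comparisons. MXD1 is at 2.61 and 4.31 with the compounds and 0.67 with p53-WT, and MXD4 is at -0.49 with UCI-1014 and 1.93 with p53-WT.

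Per transcript length, MYC led the network in TOV-112D and in p53-null cells. In DMSO the order by mean TPM was MYC (319), MAX (141), MLX (34.9), MNT (20.2), MXD3 (15.4), MXD4 (10.4), MYCL (6.88), MXI1 (6.70), MXD1 (1.54) and MYCN (0.0513), where only the neighbours MYCL and MXI1 overlapped between libraries. With UCI-1001, MXI1, MXD4, MXD1 and MYCL stood between 8.17 and 8.87 TPM, each overlapping its neighbour. With UCI-1014, MXD1 had moved up to 26.9 TPM, above MNT (19.9) and the most abundant antagonist. In p53-null the order opened with MYC (125), MAX (57.9) and MLX (43.6), and MXD3, MXD4, MXI1 and MNT overlapped in turn between 6.67 and 10.6 TPM. In p53-WT MAX (46.4) stood above MYC (37.7) in every library, MLX (28.3) overlapped MXD4 (26.5), and MXD3 (1.49) had dropped below MXD1 (5.33). MAX-209, the retained-intron transcript of 327 bases, gave 10.2 to 17.5 TPM of MAX there from 28.8 to 60.7 estimated counts. The order of MAX and MYC in p53-WT rests on that transcript.

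The summed TPM of MYC, MYCN and MYCL was 6.04 and 6.002 times that of the 5 antagonists in the DMSO libraries. The ratio was 5.44 and 4.78 with UCI-1001 and 2.86 and 3.44 with UCI-1014. It was 2.91, 3.48 and 3.30 in p53-null and 0.530, 0.656 and 0.566 in p53-WT, so that antagonist mRNA exceeded MYC family mRNA in p53-WT cells only. None of the treated or p53-WT libraries overlapped its control. These are ratios of mRNA and not of protein, and they were not tested.

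The antagonists that made up the sum differed between the experiments. In TOV-112D the sum went from 53.6 and 54.8 TPM in DMSO to 76.6 and 76.4 TPM with UCI-1014, and MXD1 from 3.03 and 2.68% of it to 39.2 and 31.0%. In Saos-2 the sum was 36.1 to 40.8 TPM in p53-null and 63.2 to 68.4 TPM in p53-WT. There MXD4 went from 21.5 to 27.7% of the sum to 38.7 to 42.3%, MXI1 from 16.7 to 23.3% to 31.1 to 33.5%, and MXD3 from 25.8 to 29.7% to 1.47 to 3.67%. The share of MXD1 did not increase in Saos-2, at 9.02 to 12.7% in p53-null and 6.85 to 10.2% in p53-WT.

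**Figure D3:**
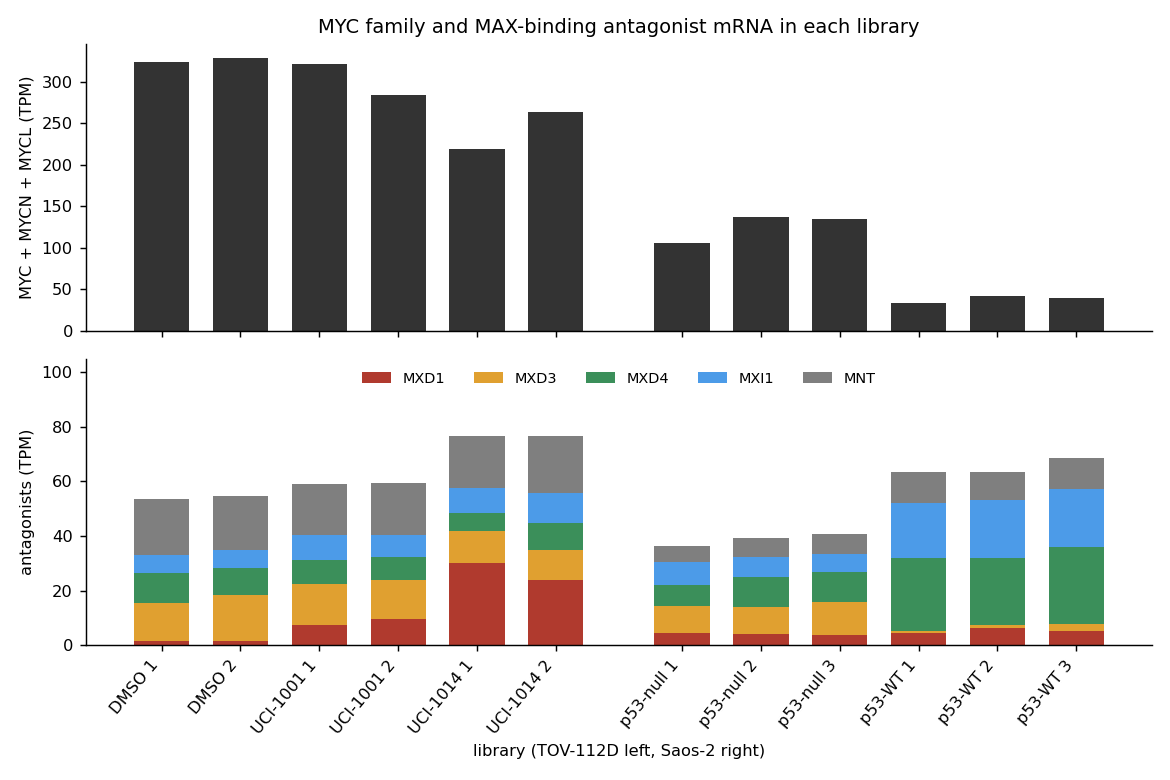
Summed TPM of MYC, MYCN and MYCL (upper panel, bars from 0) and of the 5 antagonists stacked by gene (lower panel) in each of the 12 libraries. MXD1 fills 31.0 to 39.2% of the antagonist bar with UCI-1014, while MXD4 and MXI1 fill most of it in p53-WT.

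The cell lines used different MYC transcripts. MYC-202 (ENST00000377970), a protein-coding transcript, made up 42.9 to 55.5% of MYC TPM in the TOV-112D libraries and at most 0.278% in Saos-2. MYC-206 (ENST00000621592) made up 34.2 to 43.8% in Saos-2 and at most 0.417% in TOV-112D. MYC-205 was shared, at 16.6 to 24.2% in TOV-112D and 18.9 to 32.5% in Saos-2. MYC-207, a transcript of 567 bases, was at 8.79 to 13.2% in DMSO and UCI-1001 libraries, at 0.424 and 6.98% with UCI-1014, and under 1% in Saos-2. A further transcript (ENST00000613283), which GENCODE 44 does not list and which was assigned to MYC because its counts alone close the gap to the MYC gene count in all 12 libraries, held 18.3 to 37.7%. Neither compound nor p53-WT exchanged the leading transcript of a cell line. The transcripts overlap, so these shares rest on the few bases in which they differ, and they were not tested.

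**Figure D4:**
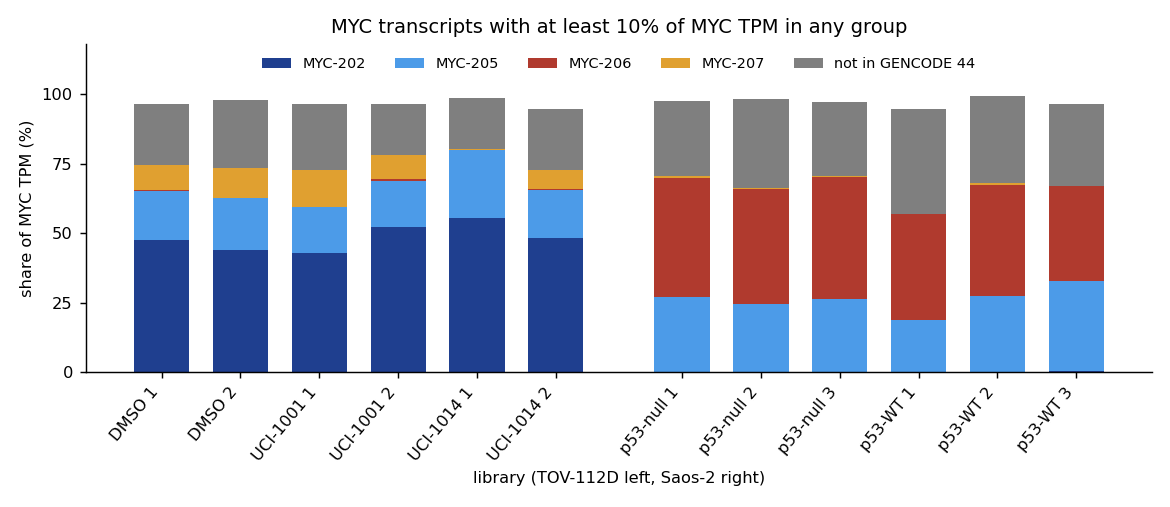
Share of MYC TPM (percent, stacked) held by the 5 transcripts with at least 10% in any group mean, in each of the 12 libraries. MYC-202 appears in TOV-112D only, at 42.9 to 55.5%, and MYC-206 in Saos-2 only, at 34.2 to 43.8%, apart from shares of at most 0.417%.

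Genes known to be activated by MYC were lower with p53-WT and divided with the compounds. Of 57 such genes, all tested, 50 fell and 2 rose with p53-WT, with a median log2 difference of -1.01 where the median of all genes was -0.01 and 33% of all genes were called down. The kinases of mitosis and centriole duplication PLK1 (log2 difference -3.53, SE 0.12, adjusted p = 2.31e-09) and PLK4 (-3.89, SE 0.17, adjusted p = 7.90e-09) fell most, and both are also cell cycle genes that are known to fall in arrested cells. RCL1 (0.93) and PA2G4 (0.89, both adjusted p = 1.49e-05) were the exceptions that rose. With UCI-1001 5 rose and 10 fell (9.39% of all genes called up and 6.36% down), with a median of -0.04 beside 0.00 for all genes, and the number that fell ranged from 0 to 13 over the alternatives. With UCI-1014 13 rose and 26 fell (23.7% up and 23.4% down), with a median of -0.11 beside -0.02.

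The largest changes in that list with the compounds were rises. HSPD1 and HSPE1, which form the mitochondrial chaperonin, and DUSP2, a MAPK phosphatase, led them. HSPD1 went from a mean of 985 CPM in DMSO to 1778 CPM with UCI-1001 (log2 difference 0.85, edgeR adjusted p = 5.67e-09) and 4195 CPM with UCI-1014 (2.09, adjusted p = 5.45e-14). DUSP2 rose by 1.79 and 2.18 on the log2 scale (adjusted p = 4.80e-05 and 7.63e-07). The genes that fell most with UCI-1014 were UNG, a uracil-DNA glycosylase (-0.66, adjusted p = 3.22e-07), and NOP16, of the nucleolus (-0.56, adjusted p = 1.24e-05), and SRM, the spermidine synthase, fell by 0.51 (adjusted p = 2.3e-07), a gene chosen after its value was seen. Compared directly, 12 of these genes were higher and 11 lower with UCI-1014 than with UCI-1001 (17.1 and 13.9% of all genes), but 3 were higher and 32 lower with library size alone. That scaling moved the median of all genes to -0.13 in that comparison and to -0.15 in UCI-1014 against DMSO, and the list's median relative to all genes was -0.03 in the former and -0.10 in the latter under both scalings, which shift all genes alike, and -0.08 and -0.10 on TPM.

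Genes known to be repressed by MYC showed no falls. Of 10 genes 4 rose with UCI-1001, 5 with UCI-1014 and 5 in UCI-1014 against UCI-1001, and 8 of 9 rose with p53-WT, where 9.39, 23.7, 17.1 and 33.5% of all genes were called upwards. The list medians were 0.30, 0.67, 0.37 and 1.35, and on TPM the first 3 were 0.05, 0.40 and 0.22. CDKN1A, the CDK inhibitor p21 and itself a direct p53 target, averaged 8.49 CPM in DMSO, 26.6 CPM with UCI-1001 and 98.6 CPM with UCI-1014, and 64.7 CPM in p53-null and 8336 CPM in p53-WT (edgeR adjusted p = 3.88e-08, 2.53e-13 and 6.15e-10 against the controls). THBS1, an inhibitor of angiogenesis, rose by 2.12 and 3.75 with the compounds (adjusted p = 8.38e-05 and 6.45e-09). NDRG2 rose by 2.77 with p53-WT (adjusted p = 1.04e-08), whereas its differences with the compounds were -0.07 and -0.18 and not called. Several of these genes, GADD45A among them, are also known p53 or stress response genes.

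**Figure D5:**
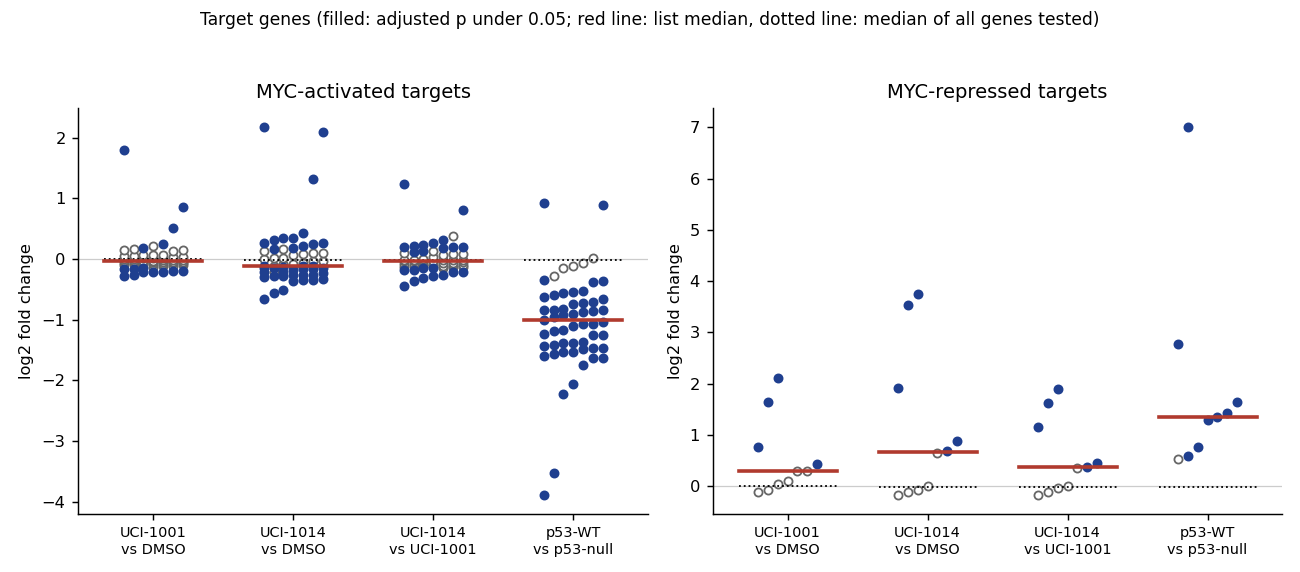
Log2 fold change of each tested gene of the MYC-activated list (left) and the MYC-repressed list (right) in the 4 comparisons, with the list median as a red line and the median of all genes as a dotted line. With p53-WT 50 of 57 activated targets fell, around a median of -1.01, while the compounds left the median between -0.11 and -0.04.

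Of 15 other partners of MYC and MAX and chromatin cofactors, 2 rose and none fell with UCI-1001, where 15.7% of all genes were called. MGA, a large MAX partner that represses germline genes, rose by 0.41 with UCI-1001 and 0.86 with UCI-1014 (adjusted p = 9.09e-05 and 5.30e-09). KAT5, the TIP60 acetyltransferase, rose by 0.32 and 0.79 (adjusted p = 0.00906 and 5.28e-07). With UCI-1014 4 of 15 rose and 4 fell (47.1% of all genes called), EP400 (-0.28) and WDR5 (-0.25) the furthest, and 5 were higher and 2 lower than with UCI-1001 (31.1%). The medians of the list were 0.00, 0.02 and 0.02 in these comparisons and -0.23 with p53-WT, beside 0.00, -0.02, -0.01 and -0.01 over all genes. With p53-WT 2 rose and 5 fell (66.5%), among them MLXIPL, which encodes ChREBP (2.33, adjusted p = 3.95e-05), and ACTL6A, a subunit of acetyltransferase and remodelling complexes (-1.86, adjusted p = 1.23e-07). All adjusted p-values here are from edgeR.

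Of the SIN3 corepressor, which MXD and MNT proteins recruit, 1 of 10 genes rose and 1 fell with UCI-1001, 2 rose and 3 fell with UCI-1014, none rose and 2 fell in UCI-1014 against UCI-1001, and 3 rose and 6 fell with p53-WT. Over all genes 15.7, 47.1, 31.1 and 66.5% were called in these comparisons, and the compound counts lie near those shares. The list medians were -0.01, -0.05, -0.02 and -0.58. SIN3A, the scaffold, was lower in each of these by edgeR, by 0.15 (adjusted p = 0.0431), 0.55 (adjusted p = 2.95e-07), 0.41 (adjusted p = 1.88e-05) and 1.04 (adjusted p = 5.04e-06). Its mean level was 109 CPM in DMSO, 98.7 CPM with UCI-1001 and 74.4 CPM with UCI-1014. NCOR1 (1.65, adjusted p = 7.27e-07) and SIN3B (0.52, adjusted p = 0.00170) rose with p53-WT.

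Of 16 genes that control the stability of MYC protein, 2 rose and 1 fell with UCI-1001, near the 15.7% called over all genes. With UCI-1014 7 rose and 5 fell (47.1% of all genes called), and with p53-WT 4 rose and 10 fell (66.5%). The list medians were -0.03, 0.02 and -0.50. FBXW7, the ubiquitin ligase adaptor that marks phosphorylated MYC for degradation, went from 9.99 to 34.8 CPM with p53-WT (1.80, adjusted p = 1.10e-06 by edgeR), and GSK3B, the kinase that phosphorylates MYC for it, rose by 1.24 (adjusted p = 1.70e-05). CIP2A and AURKA, which stabilise MYC or MYCN, fell by 2.84 and 2.73 (adjusted p = 1.65e-08 and 3.85e-09), and AURKA is also a mitotic gene. The other falls beyond 1 with p53-WT, named as exceptions, were SKP2 (-1.95), USP37 (-1.58), USP28 (-1.22) and PPP2R5A (-1.04, edgeR adjusted p at most 3.53e-05). With UCI-1014 AURKA rose by 0.54 and FBXO28 by 0.76 (adjusted p = 2.27e-07 and 3.23e-07), while the ligase gene SKP2 fell by 0.50 (adjusted p = 3.72e-05). Against UCI-1001 7 were higher and 5 lower with UCI-1014 (31.1% of all genes called), with a median of 0.11.

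Of 12 regulators of MYC transcription and MYC mRNA, 1 fell with UCI-1001, 5 rose and 2 fell with UCI-1014, 5 were higher and 1 lower in UCI-1014 against UCI-1001, and 2 rose and 6 fell with p53-WT. Over all genes 15.7, 47.1, 31.1 and 66.5% were called, and the list medians were 0.00, 0.03, 0.09 and -0.28. IGF2BP1, which protects MYC mRNA from decay, fell by 0.18 with UCI-1001, 0.27 with UCI-1014 and 0.88 with p53-WT (edgeR adjusted p = 0.00381, 3.31e-05 and 9.37e-05). CTNNB1, encoding beta-catenin, rose by 0.79 with p53-WT (adjusted p = 2.90e-05).

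Of 7 targets of MLX with MondoA or ChREBP, TXNIP and PKLR passed the filter in neither cell line and ARRDC4 only in TOV-112D. ARRDC4, an arrestin that limits glucose uptake, and KLF10 rose with UCI-1001 (0.79 and 0.72, adjusted p = 0.000951 and 6.56e-05 by edgeR) and with UCI-1014 (0.94 and 1.35), while FASN, ACACA and ACLY, of fatty acid synthesis, fell with UCI-1014 by 0.37, 0.11 and 0.15, ACACA being named to complete the 3 that fell. Thus 2 of 5 tested were called with UCI-1001 (15.7% of all genes) and 5 of 5 with UCI-1014 (47.1%), and in UCI-1014 against UCI-1001 1 was higher and 2 were lower (31.1%). The list median changed sign on TPM. With UCI-1014 it was -0.11 by edgeR and 0.07 in limma on TPM, and against UCI-1001 it was -0.10 and 0.11. With p53-WT KLF10 fell by 1.28 (adjusted p = 3.91e-06) and the other 3 tested were not called (66.5% of all genes called). Of the transcripts that neighbour or overlap the MYC family genes, only the pseudogene MYCLP1 was matched, with no counts, and the others were not analysed here.

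Over all 12 libraries, after each cell line's mean was subtracted, the genes whose log2 CPM was most like that of MYC among 8555 compared were HDGF, PPM1G, MAZ, LRRC20 and GTSE1, each at a Pearson correlation of 0.996 or 0.997. Those most opposed were CTNNB1 (-0.998), MTO1 (-0.997), BTG2, BLMH (both -0.996) and P4HA2 (-0.995). Within TOV-112D alone the values were 0.932 to 0.976 for the first 5 and -0.987 to -0.954 for the others. Among the members, the correlation with MYC was -0.99 for MXI1, -0.88 for MXD4, -0.84 for MNT, 0.83 for MLX, 0.37 for MAX and -0.36 for MXD1. The libraries fall into 5 groups and the Saos-2 difference weighs most, so these are descriptions of the group pattern. In both cell lines MXD1 was higher in the groups where MYC was lower, but the size of its difference did not follow that of MYC.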

How the data were processed

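RNA was measured in 12 libraries, 6 of TOV-112D and 6 of Saos-2 cells. The authors quantified transcripts with kallisto 0.48.0 per the submitters' processing notes, which also name DESeq2 1.38.3. They deposited 1 table of estimated counts summed per gene, in whole numbers, and for each library a table of transcript estimated counts with TPM values. Gene identifiers were summed by symbol. Counts were fitted once per cell line with edgeR 4.0.16 (TMM scaling, filterByExpr, quasi-likelihood test, Benjamini-Hochberg adjustment over all genes tested, R 4.3.3), after the code was tested on simulated data. The comparisons were UCI-1001 and UCI-1014 with DMSO and with each other, and p53-WT with p53-null. Gene TPM was summed from the deposited transcript TPM, of which 88.4% of 187626 transcripts matched GENCODE 44, and was tested with limma 3.58.1 on log2(TPM + 0.1). For MYC and MAX 1 transcript each, absent from that release, was assigned because its counts close the gap to the gene count within 1 count in every library. Alternatives were DESeq2 1.42.0, other scalings, no filter, unsummed identifiers, TPM, a replicate block, other sets of libraries and leaving out each library. CPM below 3 counts was treated as the detection floor, and intervals of fold changes are at 95%. All members are described, and from each other list the 2 called genes with the largest rise and the 2 with the largest fall were eligible in each comparison, if they averaged 1 CPM or more, with exceptions named in the text. The 5 genes most and least correlated with MYC were taken among genes with at least 10 CPM in each cell line. The members and lists were chosen with earlier results of these data known. Figures were drawn with matplotlib 3.10.9. The results of some genes are not reported here.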

Additional observations from a re-analysis of the deposited data

How the results depend on the processing

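Over the member fold changes, 531 alternatives were computed, of which 457 kept their direction and side of the threshold, 45 lost the call, 18 gained it and 11 changed sign; the cause was not tested. The compound effects on MXD1 and the p53-WT effects on MYC, MXD3, MXD4, MXI1 and MNT kept their calls in all of them. Requiring a log2 fold change above 1 left 185, 778, 261 and 4356 genes (from 2232, 6677, 4406 and 9489) for UCI-1001, UCI-1014, UCI-1014 against UCI-1001 and p53-WT, and 1, 1, 1 and 4 members. In the first 3 comparisons limma on log2(TPM + 0.1) called 205, 3952 and 1595 genes and 1, 4 and 1 members, and a fit of all 12 libraries called 308, 3421 and 937 genes and 1, 5 and 1 members. DESeq2 called 1139 genes and 1 member for UCI-1001 and 2636 genes for UCI-1014 against UCI-1001. For UCI-1001, 4 members were called without the filter or with only the 4 libraries compared, and 1 with unsummed identifiers. Leaving out each library gave 952 to 2538 genes and 1 to 4 members for UCI-1001, and 5 to 8 members for UCI-1014. Signs changed for UCI-1001 in MLX (-0.00933 with library size alone, -0.0207 in the 12-library fit, -0.0416 to 0.0592 on leaving out libraries), MNT (-0.103 on TPM, -0.00683 in the 12-library fit, -0.00614 to 0.0511 on leaving out libraries) and MXD3 (-0.277 to 0.0603), for UCI-1014 in MNT (-0.0174 on TPM), and against UCI-1001 in MXD4 (-0.552 to 0.0325). The share of called genes that were higher moved from 59.6, 50.4 and 55.2% to 50.4, 30.1 and 25.5% with library size alone, to 87.8, 49.9 and 48.4% on TPM and to 83.1, 50.2 and 70.1% in the 12-library fit, and for p53-WT from 50.4 to 38.9% on TPM, where the median of all genes was -0.21.

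Replicates with the same number share only a number: correlations of their deviations were 0.0631, -0.0301 and -0.164 in TOV-112D and 0.139, 0.0922 and 0.0749 in Saos-2. With a replicate block 2, 8, 5 and 7 members and 1774, 6307, 3882 and 9814 genes were called. A crossed block, added after seeing the data, called 5 members and 4979 genes for UCI-1014 against UCI-1001.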
